A study of Rattus norvegicus with 69 samples.

Results

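Abcb1b and the main ATP-binding cassette (ABC) efflux pumps of the liver were followed in 69 RNA-seq libraries of rat liver. The 8 genes were found by name among the 38513 genes of the count table, and all 8 were among the 16676 genes with enough reads to be tested. Abcb1b was selected on its measured values in these libraries, so its levels are given as a description with no test. Abcb1a, Abcb4, Abcb11, Abcc2, Abcc3, Abcc4 and Abcg2 were added as the known efflux pumps of this tissue, and tests and counts of changed genes cover these 7.

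The animals of the 6 treatment groups were adult male Wistar rats made obese on a high-fat diet, after which they had free choice between high- and low-fat food. They received Roux-en-Y gastric bypass (RYGB, n = 14), a sham operation (n = 12), liraglutide by injection with saline by minipump (n = 5), the gut peptide PYY3-36 by minipump with saline by injection (n = 5), liraglutide+PYY3-36 (n = 11) or saline by both routes (n = 8). Liraglutide is an agonist of the GLP-1 receptor. A further 8 libraries were labelled BWM and 6 Lean, names that the sources used here do not explain, so whether the account of diet above holds for them is unknown. Each library belongs to batch A (41 libraries) or batch B (28 libraries) by its label, and what separates the batches is not given. BWM and Lean libraries were all in batch A, and liraglutide and PYY3-36 libraries were all in batch B. The study's methods state that some liraglutide+PYY3-36 and saline animals were fed for longer, without naming them. Their numbers there equal the 6 liraglutide+PYY3-36 and 3 saline libraries of batch A, and no label says whether they are the same animals.

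Hepatocytes take up bile acids, drugs and bilirubin from blood and send them out again through ABC pumps that spend ATP on each transport step. Pumps of the canalicular membrane face the bile: Abcb11 (the bile salt export pump), Abcc2 (MRP2, which exports bilirubin and other conjugates), Abcb4 (which moves phosphatidylcholine into bile), Abcg2 (BCRP) and the P-glycoproteins Abcb1a and Abcb1b, which expel a wide range of lipophilic drugs. Pumps of the basolateral membrane, Abcc3 (MRP3) and Abcc4 (MRP4), return conjugates and bile acids to blood. Rodents carry a pair of P-glycoprotein genes where humans have ABCB1 alone.

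The pair lie close together. In the annotation of the count table (rat genome Rnor_6.0), Abcb1b spans 22225123 to 22307577 and Abcb1a 22339829 to 22517642 on the minus strand of chromosome 4, and Abcb4 lies nearby at 22133984 to 22192687. The annotation places LOC103692045 (22201792 to 22220741) between Abcb4 and Abcb1b, and LOC108350661 (22157257 to 22159279) within the span of Abcb4. Counting divided reads that matched several places or overlapped several genes, and values that are not whole numbers, the trace of such reads, occurred in 55 of 69 libraries for Abcb1b, 59 for Abcb1a and 55 for Abcb4. Abcc3 had them in 9 libraries, Abcb11 and Abcc2 in 1 library each, and Abcc4 and Abcg2 in none. The levels of Abcb1a, Abcb1b and Abcb4 are therefore uncertain by their divided reads, and with which genes those reads were shared was not tested.

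The bases before the starts of the P-glycoprotein pair are shown because they are the start-proximal DNA of the gene with the widest spread and of its neighbour. They are the 250 bases before the RefSeq start on the sense strand in genome build GRCr8, chr4:26280030-26280279 for Abcb1b and chr4:26397649-26397898 for Abcb1a, both on the minus strand. Capitals mark matches on either strand to a CCAAT box, to the GC box GGGCGG, to the AP-1 motif TGAGTCA or to the AT-rich TATTTAA, which were chosen with the sequences in view.
Abcb1b: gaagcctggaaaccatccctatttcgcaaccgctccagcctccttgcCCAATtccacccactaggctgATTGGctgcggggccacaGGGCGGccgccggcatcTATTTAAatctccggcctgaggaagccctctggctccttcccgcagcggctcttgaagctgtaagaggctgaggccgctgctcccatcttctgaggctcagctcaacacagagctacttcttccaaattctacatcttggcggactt
Abcb1a: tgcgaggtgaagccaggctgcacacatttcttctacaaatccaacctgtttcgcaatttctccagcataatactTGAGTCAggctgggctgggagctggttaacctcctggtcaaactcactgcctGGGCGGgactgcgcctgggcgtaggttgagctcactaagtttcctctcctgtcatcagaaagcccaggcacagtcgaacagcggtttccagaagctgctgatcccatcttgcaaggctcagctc
The Abcb1b window held CCAAT at 203 to 199 bases before the start, its reverse complement at 182 to 178, GGGCGG at 164 to 159 and TATTTAA at 147 to 141. The Abcb1a window held TGAGTCA at 176 to 170 and GGGCGG at 124 to 119, and no matches overlapped in either window. Of 33469 rat promoter windows of this length, 34% held CCAAT, 30.5% GGGCGG, 4.05% TGAGTCA and 4.16% TATTTAA on either strand. Entries for 6 of the 8 genes were found (none for Abcc3 and Abcb11), and all 6 held GGGCGG, whereas CCAAT and TATTTAA were found in Abcb1b and Abcc2 and TGAGTCA in Abcb1a alone. A match is a description of letters and not a bound site.

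Total counts ranged from 9110860 to 27559144 per library (median 21027325), and the 3 RYGB libraries of batch B were among the shallow ones with 9110860 to 13941960. Levels are given as CPM (counts-per-million) after scaling for composition. The summed level of 9 hepatocyte markers such as albumin ranged from 57930 to 424500 CPM across the libraries, against 22.16 to 83.09 CPM for 9 cholangiocyte markers, and Krt7 of the latter list was at 0 in its lowest library. In a principal component analysis of all libraries, component 1 held 36% of the variance. Only batch B was searched for libraries standing apart on it, by the widest gap between its scores. Those beyond the gap were sham 12, PYY3-36 5, liraglutide 4 and liraglutide+PYY3-36 8, 9 and 11, with scores of 112 to 159. The nearest other batch B library had 80. Because whole liver was sequenced, fewer cells of a type and less RNA per cell cannot be told apart.

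Per kilobase of exon, which allows genes to be compared, the bile salt pump Abcb11 had the highest mean level over the 69 libraries at 67.3 ± 24.8 CPM per kb (SD). Abcc2 followed at 32.4 ± 13.8 and Abcb4 at 13.8 ± 5.92 CPM per kb. Abcb1b averaged 5.26 ± 17.5 CPM per kb, an SD larger than its mean, and Abcb1a 2.63 ± 1.07. Abcg2 (1.79 ± 1.37), Abcc4 (1.33 ± 0.303) and Abcc3 (0.488 ± 0.206 CPM per kb) were the lowest. The order was the same over the 12 sham libraries alone, where the SDs of Abcb1b (3.42 ± 3.48), Abcb1a (2.49 ± 0.731) and Abcg2 (1.95 ± 1.62 CPM per kb) overlapped.

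Abcb1b was the most variable of the 8 pumps. In the PYY3-36 group it was 5.04, 21.4, 5.23, 14.4 and 679 CPM in replicates 1 to 5. Replicate 5 was 7.93 times the next highest of all 69 libraries, and its value rested on 9667 counts. A low scaling factor of 0.6772 also raised its CPM. The other 4 PYY3-36 libraries lay within the range of the 8 saline libraries, which had a median of 9.56 CPM between 4.9 and 85.4.

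Single libraries far above the rest of their group were not limited to PYY3-36. In the saline group replicate 2 held 85.4 CPM, and the next library of that group held 15.1. Among sham libraries the lowest was 3.26, the median 12.2 and the highest 62.4 CPM, the last again a single library, with the next at 28.7. Liraglutide+PYY3-36 libraries ranged from 3.7 to 85.6 CPM around a median of 18.2. Here the high levels were not those of a single library, as the next were 80.6, 47.5 and 37.8 CPM.

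The libraries of RYGB, Lean and liraglutide all lay at or below 16.2 CPM, although liraglutide replicate 1 was well above the other 4 of its group. RYGB libraries ranged from 2.24 to 16.2 CPM around a median of 7.19, Lean libraries from 2.02 to 9 around 4.08, and liraglutide libraries were 13, 2.29, 3.65, 1.04 and 2.9 CPM in replicates 1 to 5. BWM libraries lay between 7.07 and 27.1 CPM with a median of 18.5. The highest RYGB library (16.2 CPM) was exceeded by 7 of 11 liraglutide+PYY3-36, 5 of 8 BWM, 2 of 5 PYY3-36, 3 of 12 sham and 1 of 8 saline libraries, and by none of the 6 Lean and 5 liraglutide libraries. In order of their medians the groups ran BWM, liraglutide+PYY3-36, PYY3-36, sham, saline, RYGB, Lean and liraglutide, and the ranges of all neighbours in this order overlapped.

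**Figure D1:**
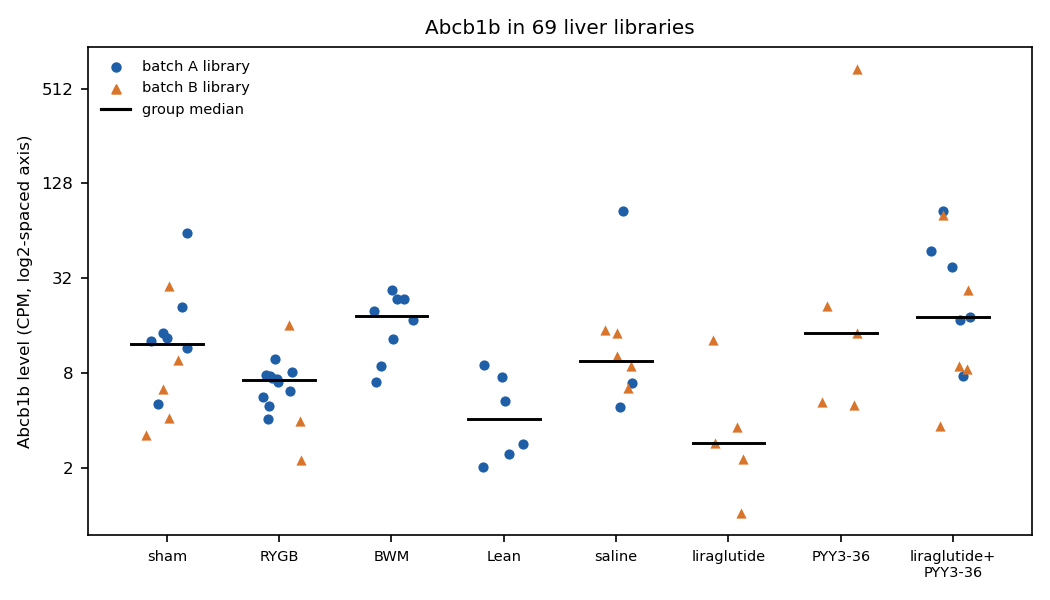
Abcb1b level in counts-per-million (CPM, on a log2-spaced axis) in each of the 69 libraries by group; circles are batch A, triangles batch B and bars group medians. PYY3-36 replicate 5 at 679 CPM sits above every other library, and the 14 RYGB libraries lie between 2.24 and 16.2 CPM.

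The fitted differences of Abcb1b, given with no test, follow these libraries. For PYY3-36 against saline the log2 fold change was 3.32 ± 0.77 (SE), and without PYY3-36 replicate 5 it was -0.33 ± 0.677. RYGB against sham gave -1.23 ± 0.516, with -1.55 within batch A and -0.45 within batch B, and it was -0.85 without sham replicate 2. The difference from sham was -1.94 for Lean and -0.08 for BWM, and without sham replicate 2 these were -1.5 and 0.35. Against saline it was -1.66 for liraglutide and 0.72 for liraglutide+PYY3-36, and the sizes, though not the signs, moved with single libraries. The first was -2.54 without liraglutide replicate 1 and -1 without saline replicate 2, and the second 0.27 without liraglutide+PYY3-36 replicate 8 and 1.57 without saline replicate 2.

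The spread of Abcb1b within groups, as the SD of log2 CPM, was 1.29, above 98.3% of the genes tested, and 1.09 (above 95.8%) without PYY3-36 replicate 5. The median gene had 0.556 in all libraries. Abcc4 was the steadiest pump at 0.272, above 7.15% of genes, and the other 6 pumps lay between 0.475 (Abcb11) and 0.732 (Abcg2).

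In PYY3-36 replicate 5 other readouts also lay at the edges of their ranges. The summed level of lymphocyte markers was 46.85 CPM, second of 69 libraries and above the 10.2 to 12.93 CPM of the other 4 PYY3-36 libraries, with Ptprc at 34.5 CPM but Cd3e and Nkg7 at 0. Stellate cell markers ranked 4 and endothelial markers 5 from the highest (400.5 and 280.4 CPM), cholangiocyte markers ranked 66 (30.14 CPM), and hepatocyte markers ranked 36. Members of the lists diverged, with Kdr at 125, Lrat at 91.7 and Dcn at 69.6 CPM, but Stab2 at 1.37 CPM, its lowest of all libraries, Clec4g at 2.32, Acta2 at 0.913 and Cdh5 at 0.14 CPM. The part of these in the Abcb1b level was not tested. Without the 6 libraries that stood apart, of which this is 1, the PYY3-36 difference of Abcb1b was -0.31.

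Abcb1a, the neighbouring P-glycoprotein, was far steadier. Its group medians lay between 9.35 CPM (saline) and 19.2 CPM (liraglutide+PYY3-36), while those of Abcb1b ran from 2.9 to 18.5 CPM. PYY3-36 libraries held 11.2, 14.8, 9.33, 7.77 and 36.2 CPM in replicates 1 to 5, so replicate 5 was again the highest. The ratio of Abcb1b to Abcb1a was 18.7 there, whereas the highest ratio in any other group was 4.26, in a saline library. The ratio was below 1 in all 14 RYGB and all 6 Lean libraries, and above 1 in 7 of 11 liraglutide+PYY3-36, 5 of 8 saline, 5 of 12 sham, 4 of 8 BWM, 3 of 5 PYY3-36 and 1 of 5 liraglutide libraries.

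In RYGB against sham, Abcc3 rose, and it was the only pump of the 7 tested that passed the test at an adjusted p under 0.05. Of all genes tested, 3.12% passed in either direction (1.54% higher, 1.58% lower). The median log2 fold change of the 7 pumps was 0.29 and that of all genes 0. At an unadjusted p under 0.05 there were 4 of 7 pumps, against 12.7% of all genes. DESeq2 called 1 of the 7 and limma-voom 5, so how many pumps pass depends on the tool. The 4 added by limma-voom were Abcb4 (log2 fold change 0.56), Abcb11 (0.57), Abcc2 (-0.6) and Abcc4 (0.31), with limma-voom adjusted p between 0.00841 and 0.0425.

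Abcc3, the basolateral exporter of glucuronides, had a lowest level of 1.67, a median of 4.82 and a highest of 7.73 CPM in RYGB libraries, and 1.49, 2.39 and 4.8 CPM in sham libraries. The ranges overlapped, yet 13 of 14 RYGB libraries lay above the sham median and 7 above the highest sham library. The means were 4.72 ± 1.59 (SD, n = 14) and 2.63 ± 1.01 CPM (n = 12). The log2 fold change was 0.86 ± 0.217 (SE; edgeR adjusted p = 0.0111), and leaving out any single library of these groups gave adjusted p between 0.00399 and 0.0304. It was 1.06 within batch A (edgeR adjusted p = 0.00182) and 0.67 within batch B, where 3 RYGB and 5 sham libraries gave an edgeR adjusted p of 0.92. Abcc3 is a low gene here, with 11 to 174 counts per library.

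Abcc4, the other basolateral pump, had a mean of 9.71 ± 1.92 CPM after RYGB and 7.64 ± 1.27 CPM after sham. Of the RYGB libraries, 12 of 14 lay above the sham median and 5 above the highest sham library. The log2 fold change of 0.29 ± 0.107 did not pass (edgeR adjusted p = 0.156).

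Among the canalicular pumps, Abcc2 was lower in RYGB libraries on average and Abcb11 and Abcb4 were higher, without passing the test. For Abcc2 the lowest, median and highest libraries were 39.6, 123 and 186 CPM after RYGB and 39.7, 180 and 270 CPM after sham, and 1 of 14 RYGB libraries lay above the sham median. Its log2 fold change was -0.56 ± 0.223 (edgeR adjusted p = 0.203), with -0.54 in batch A and -0.92 in batch B. Abcc2 and Abcc3 thus had opposite signs. Across the 69 libraries, with group and batch means removed, their log2 levels had a Pearson r of -0.52 (-0.41 in batch A, -0.6 in batch B). Other pairs of pumps had r of like size, such as Abcb1a and Abcc2 (0.53), Abcb4 and Abcc2 (-0.45) and Abcb4 and Abcc3 (0.44). Each r is a description over points that share library and depth.

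Abcb11 had a log2 fold change of 0.42 ± 0.194 (edgeR adjusted p = 0.316), and the batches gave opposite signs. In batch A the mean was 427 ± 114 CPM after RYGB (n = 11) and 255 ± 68.8 CPM after sham (n = 7), a log2 fold change of 0.73 that passed there (edgeR adjusted p = 0.0128). In batch B it was 264 ± 25.1 CPM (n = 3) against 394 ± 185 CPM (n = 5), or -0.58 (edgeR adjusted p = 0.926). The sham mean of batch B holds sham replicate 12, one of the libraries that stood apart, at 708 CPM.

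Abcb4 gave 0.38 ± 0.221 over all libraries, 0.66 in batch A and -0.15 in batch B (edgeR adjusted p = 0.518, 0.0625 and 0.982). Abcb1a averaged 15.9 ± 4.79 CPM after RYGB and 14.3 ± 4.2 CPM after sham (log2 fold change 0.11 ± 0.2). Abcg2 averaged 6.13 ± 2.7 and 7.13 ± 5.92 CPM (log2 fold change -0.04 ± 0.29), the sham spread coming with libraries at 22.9 and 15.1 CPM. For both genes the fitted difference was smaller than its SE.

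**Figure D2:**
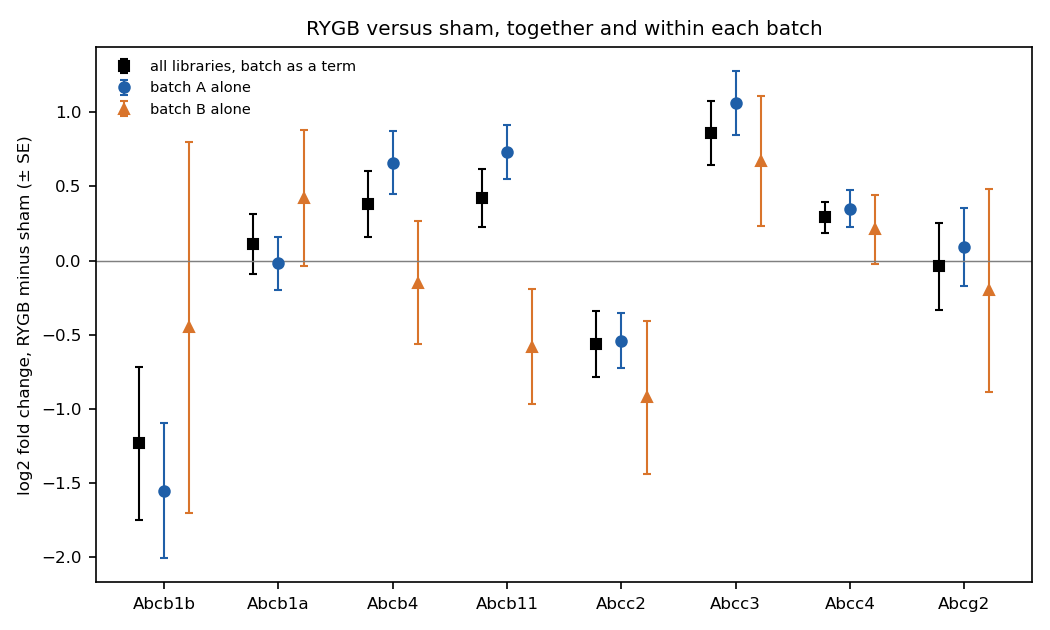
Log2 fold change of RYGB minus sham for the 8 pumps with its standard error, from all libraries with batch as a term (squares), batch A alone (circles) and batch B alone (triangles). Abcc3 is above 0 in all 3 fits (0.86, 1.06 and 0.67), whereas Abcb11 is 0.73 in batch A and -0.58 in batch B; Abcb1b is shown with no test.

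Other cell types were compared in the same libraries. Of 9 Kupffer cell and macrophage markers, all 9 had a positive difference and 1, Vsig4, passed, where 3.12% of all genes did. The log2 fold change of Vsig4 was 0.61 ± 0.183 (edgeR adjusted p = 0.0486, and 0.0849 in batch A alone). The summed level of the 9 markers ranged from 211.5 to 715.3 CPM after RYGB and from 185.4 to 488.4 CPM after sham. Summed blood cell markers had medians of 118 CPM after RYGB and 343.4 CPM after sham. The hepatocyte sum had medians of 149900 and 132000 CPM. The part of these in the pumps' differences was not tested.

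BWM and Lean were compared with the same sham libraries. None of the 7 pumps passed in either comparison (edgeR, with 0 at an unadjusted p under 0.05 in both, and 0 by DESeq2 and by limma-voom), and 0.042% of all genes passed for BWM and 0.612% for Lean (0.48% higher, 0.132% lower). Abcc3, for which RYGB stood out, had medians of 2.9 CPM in BWM and 2.8 CPM in Lean libraries against 2.39 in sham of both batches. The log2 fold changes were 0.16 ± 0.257 and 0.05 ± 0.28. Within batch A, which holds all BWM and Lean libraries, the sham median of Abcc3 was 2.14 CPM. The fit of batch A alone gave 0.38 for BWM and 0.27 for Lean, against 1.06 for RYGB. No BWM or Lean library exceeded the highest sham library in Abcc3. The largest difference among the 7 was that of Abcb4 in Lean, -0.49 ± 0.289 (edgeR adjusted p = 0.96).

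In the drug groups none of the 7 pumps passed against saline (edgeR; 0 by DESeq2 and limma-voom as well). The share of all genes that passed was 0.006% for liraglutide+PYY3-36, 0% for PYY3-36 and 0.006% for liraglutide. For PYY3-36 that was 0 genes by each of the 3 tools, with 826 genes at an unadjusted p under 0.05 in edgeR. At that unadjusted threshold there were 3 of 7 pumps for liraglutide+PYY3-36, 1 for PYY3-36 and 1 for liraglutide, against 10.9%, 4.95% and 6.22% of all genes. These comparisons share the saline libraries.

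With liraglutide+PYY3-36 the 3 pumps were Abcb1a, Abcc2 and Abcg2. Abcb1a had a lowest level of 10.9, a median of 19.2 and a highest of 39.1 CPM, and 6.56, 9.35 and 20 CPM in saline, so that all 11 treated libraries lay above the saline median and 5 above the highest saline library. Its log2 fold change was 0.77 ± 0.239 (edgeR adjusted p = 0.454), with 0.21 in batch A and 1.27 in batch B. The Abcb1a mean of saline was 16.1 ± 3.44 CPM in batch A (n = 3) and 8.28 ± 1.27 CPM in batch B (n = 5), whereas that of liraglutide+PYY3-36 was 18.8 ± 5.99 and 19.7 ± 11.9 CPM. Without the 6 libraries that stood apart, the difference was 0.45.

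Abcc2 gave 0.56 ± 0.263 (edgeR adjusted p = 0.454), and it turned to -0.16 in batch A alone and to -0.08 without the 6 libraries that stood apart. Abcg2 gave 0.76 ± 0.344 (edgeR adjusted p = 0.454), and 0.46 without those libraries.

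With PYY3-36 alone the pump at an unadjusted p under 0.05 was Abcb1a, at 0.66 ± 0.295 (edgeR adjusted p = 0.947), which was 0.11 without replicate 5. Abcc2 in the PYY3-36 libraries was 151, 122, 147, 104 and 312 CPM in replicates 1 to 5, and its difference moved from 0.45 to 0.09 without replicate 5. With liraglutide the pump was Abcg2, which was 8.36, 4.71, 6.29, 35.8 and 6.81 CPM in replicates 1 to 5 against a saline range of 2.62 to 8.16 CPM. Its log2 fold change of 1.26 ± 0.417 (edgeR adjusted p = 0.535) was 0.33 without replicate 4.

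**Figure D3:**
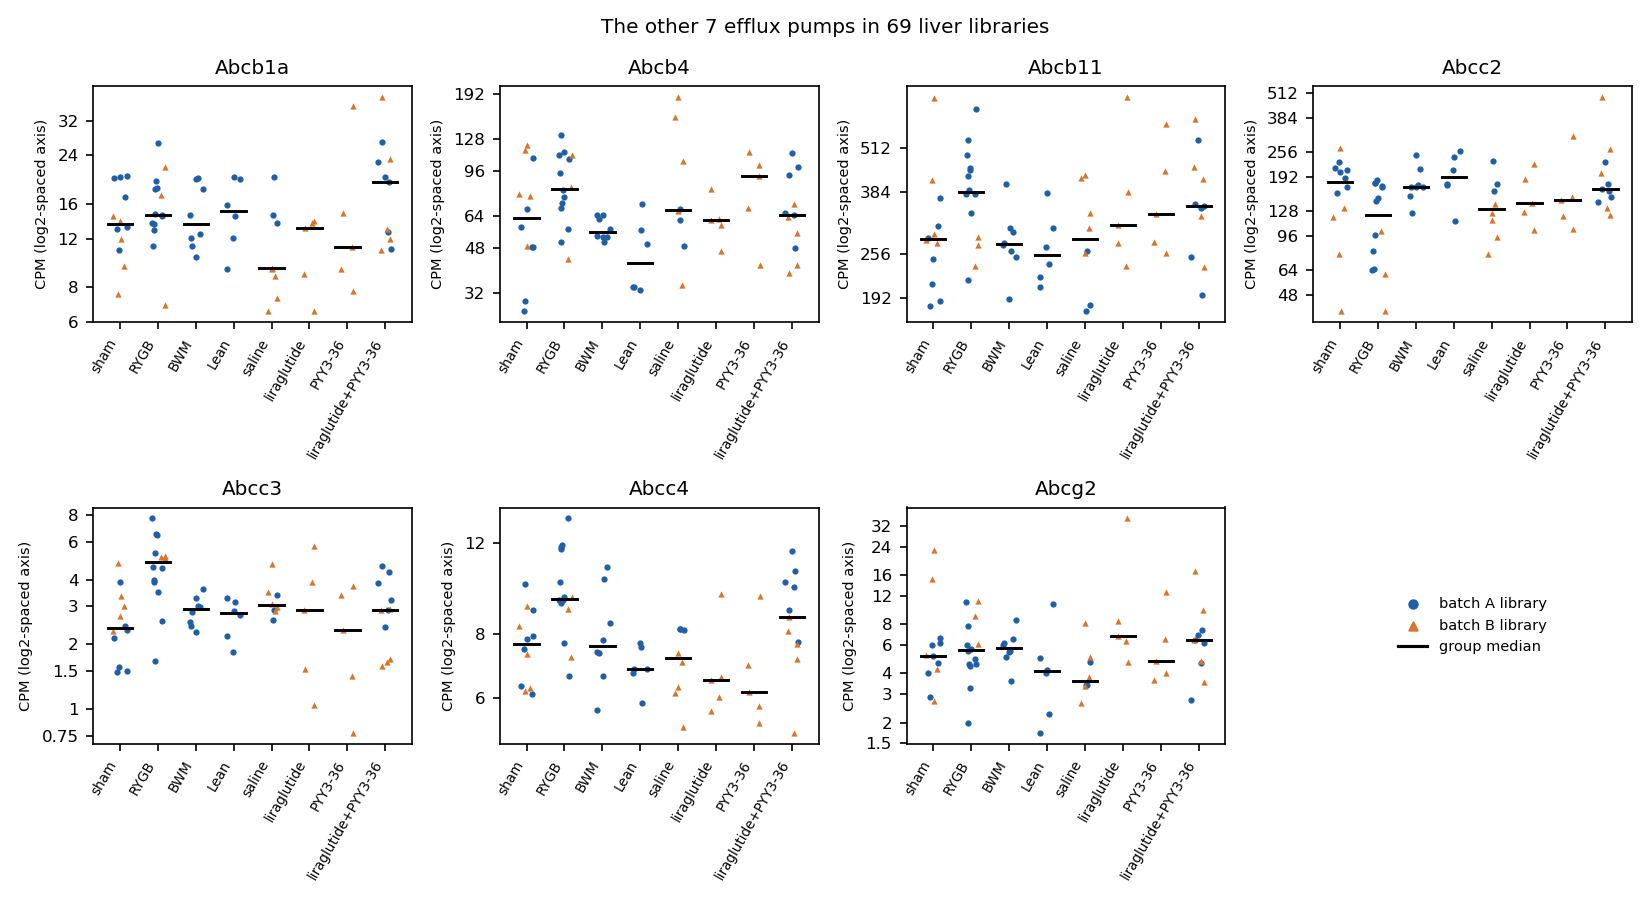
Level of the other 7 efflux pumps in counts-per-million (CPM, on log2-spaced axes that differ between panels) in each library by group; circles are batch A, triangles batch B and bars group medians. For Abcc3 the RYGB median of 4.82 CPM is above the medians of the other groups, and the single high Abcg2 value of liraglutide replicate 4 is 35.8 CPM.

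Several of the highest pump levels fell in the libraries that stood apart. They held the 3 highest Abcc2 values (492, 312 and 270 CPM) and the 3 highest Abcg2 values (35.8, 22.9 and 17 CPM). The top Abcb11, Abcb1a and Abcb1b values were also theirs. The scaling factors of these libraries ran from 0.6244 to 0.8458, and a factor below 1 raises CPM. Without scaling, the PYY3-36 mean of Abcb1b was 101 CPM against 145 with it. The liraglutide mean of Abcg2 was 9.52 CPM against 12.4. The 3 highest levels of Abcc3 and of Abcc4 were all in RYGB libraries, and the lowest Abcc3 value of 0.773 CPM was in PYY3-36 replicate 5, the library with the highest Abcb1b.

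The effect of RYGB over sham was compared with that of liraglutide+PYY3-36 over saline as a single contrast. None of the 7 pumps passed (edgeR, 4 at an unadjusted p under 0.05; 0 by DESeq2 and limma-voom), and 0.036% of all genes passed, with 12.3% at the unadjusted threshold. Abcc2 had the largest difference between the effects, -1.12 ± 0.347 (edgeR adjusted p = 0.275), followed by Abcc3 with 1 ± 0.324 (edgeR adjusted p = 0.281). For Abcc2 the single effects were -0.56 and 0.56, and for Abcc3 0.86 and -0.14. The difference between the effects varied by batch. In batch A alone it was -0.38 for Abcc2 and 0.81 for Abcc3, and in batch B alone -2.08 and 1.33.

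Lists of related genes were examined around the pumps. Of 37 other ABC transporters tested, 1 passed, a share near the 3.12% of all genes. It was Abca8, which rose after RYGB (13.9 ± 7.15 CPM in sham, 28.1 ± 9.25 CPM in RYGB; log2 fold change 1.09 ± 0.319, edgeR adjusted p = 0.0382), and the list's median was -0.01. Of 11 uptake and exchange carriers, 1 passed, where 3.12% of all genes did, and the list median was 0.07. It was Slc22a5, the carnitine transporter OCTN2, which rose from 14.6 ± 4.25 to 22.8 ± 8.69 CPM (0.68 ± 0.171, edgeR adjusted p = 0.0114). Of 15 canalicular partners, which place or assist pumps in the bile-facing membrane, none passed (edgeR; 0 at an unadjusted p under 0.05, 0 by DESeq2 and limma-voom), and the one with the lowest p was the chloride and bicarbonate exchanger Slc4a2 at -0.11 ± 0.0728.

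Among 17 nuclear receptors and other regulators, 1 passed, Nr1i3, which rose, where 3.12% of all genes passed. A positive difference was found in 9 of the 17, with a list median of 0.06. Nr1i3 encodes CAR, a receptor that switches on genes of drug metabolism and transport in hepatocytes. Its level was 84.4 ± 50.4 CPM after sham and 190 ± 73.3 CPM after RYGB (1.07 ± 0.292, edgeR adjusted p = 0.0231). Of 13 known targets of PXR and CAR, 4 passed as higher and none as lower after RYGB, against 1.54% and 1.58% of all genes. A positive difference was found in 7 of the 13, with a list median of 0.45. Cyp2b1, a cytochrome P450 that CAR induces, went from 11.4 ± 5.94 to 68.9 ± 57.6 CPM (2.17 ± 0.369, edgeR adjusted p = 7.7e-05), Cyp2b2 by 1.21 ± 0.273 and Ugt1a1, which conjugates bilirubin, by 0.68 ± 0.162 on the log2 scale. Within batch B the differences of Cyp2b1, Cyp2b2 and Ugt1a1 were -0.16, -0.35 and 0.06, against 2.66, 1.55 and 0.88 in batch A. Ugt1a1 shares exons with its neighbours and so divides reads with them. Against saline, 12 of the 13 targets had a positive difference for PYY3-36, and 10 each for liraglutide+PYY3-36 and liraglutide, with none passing (edgeR). The list medians there were 0.36, 0.22 and 0.17. Against sham, 3 of the 13 were positive for Lean and 1 for BWM, with list medians of -0.44 and -0.25 and none passing (edgeR).

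Of 13 targets of NRF2, a regulator of antioxidant genes, 1 passed after RYGB, where 3.12% of all genes did. A positive difference was found in 9 of the 13, with a list median of 0.09. The 1 that passed, Ephx1, the microsomal epoxide hydrolase, fell from 601 ± 302 to 386 ± 214 CPM (-0.94 ± 0.269, edgeR adjusted p = 0.0318). In batch A alone Ephx1 did not pass (-0.66, edgeR adjusted p = 0.0853). In Lean against sham 3 of the 13 passed as higher, where 0.48% of all genes did. A positive difference was found in 6 of the 13, and the list median was -0.12. Among the 3 were Me1, the cytosolic malic enzyme, by 1.63 ± 0.325 and Gstp1, a glutathione transferase, by 0.7 ± 0.168 on the log2 scale. In batch A, which holds all Lean libraries, Gstp1 averaged 15.6 CPM in Lean and 10.1 CPM in sham. Abcg5 forms a sterol exporter of the canalicular membrane with Abcg8. It averaged 23 ± 10.9 CPM over all sham libraries and 11.4 ± 3.54 CPM in Lean (-1.47 ± 0.342, edgeR adjusted p = 0.015). Its sham mean in batch A was 24.6 CPM, and the fit of batch A alone gave -1.12. Within batch A alone Abcg5 and Gstp1 no longer passed (edgeR adjusted p = 0.0885 and 0.121).

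In the BWM and drug comparisons no gene of these 6 lists passed in edgeR. At an unadjusted p under 0.05 the most were 6 of 15 canalicular partners with liraglutide+PYY3-36, where 10.9% of all genes were under it, and in that comparison DESeq2 and limma-voom each called 1 NRF2 target.

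The genes whose levels went most with Abcb1b were taken as those with the highest Pearson r of log2 CPM over the 69 libraries, with the mean of each batch subtracted. They were Aen (0.63), a nuclease, Cdkn1a (0.62), an inhibitor of cyclin-dependent kinases, RGD1561849 (0.61), LOC102550397 (0.61) and Ccng1 (0.59), which encodes cyclin G1. Each pair of levels comes from the same library and depth, so r is a description. In PYY3-36 replicate 5, Ccng1 was 173 CPM against at most 98.1 CPM in the other 68 libraries, RGD1561849 57.3 against at most 30.6 and Aen 36.5 against at most 30.7. Cdkn1a, however, was 30 CPM there and reached 100 CPM in another library.

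Without that library r was 0.66 for Cdkn1a, 0.57 for Aen and RGD1561849, 0.55 for LOC102550397 and 0.47 for Ccng1, and 3 of the 5 stayed among the first 5. In batch A alone 2 stayed, with Aen at 0.78 and Cdkn1a at 0.73, and in batch B alone 1 stayed, RGD1561849 at 0.75. Among the other pumps, Abcb1a had the highest r with Abcb1b (0.45, and 0.32 without PYY3-36 replicate 5). The r of the remaining 6 pumps lay between -0.21 (Abcc3) and 0.23 (Abcc2).

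**Figure D4:**
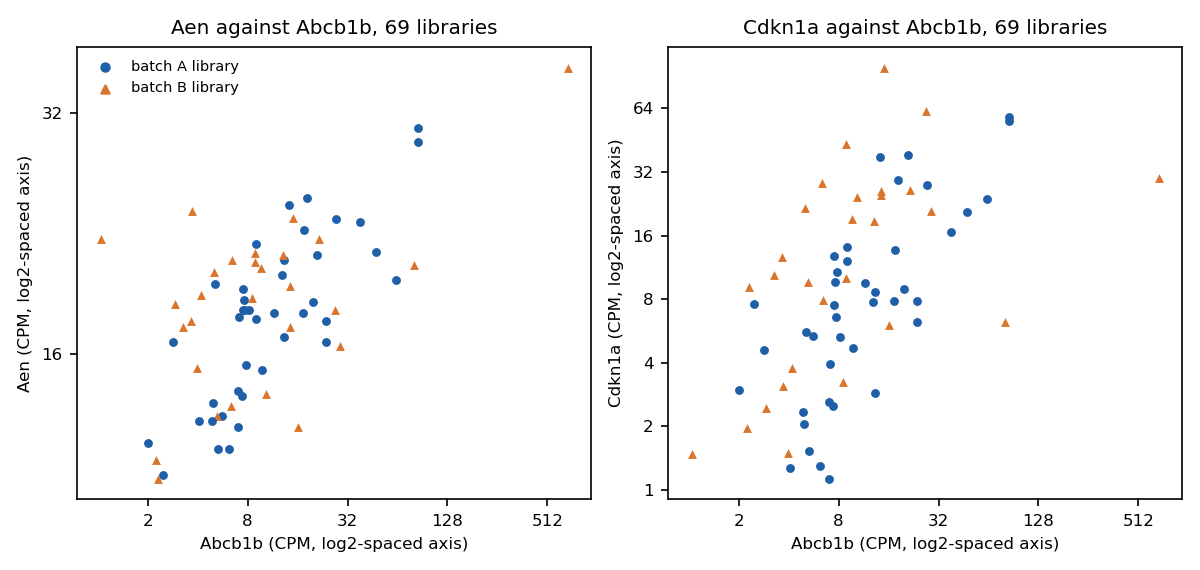
Levels of Aen (left) and Cdkn1a (right) against Abcb1b in the 69 libraries, in counts-per-million (CPM) on log2-spaced axes; circles are batch A and triangles batch B. With batch means subtracted, r was 0.63 for Aen and 0.62 for Cdkn1a, and the library at 679 CPM of Abcb1b has the highest Aen level but not the highest Cdkn1a level.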

How the data were processed

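Poly(A) RNA of rat liver was sequenced strand-specifically (single-end). Per the labels and the study's methods, the authors demultiplexed with bcl2fastq 2.20.0.422, trimmed with cutadapt 2.5, aligned to Rnor_6.0 with STAR 2.7.2b and counted exons per gene with featureCounts 1.6.4. The deposited values are estimated counts that were not normalized. Reads with several matches were divided among them, so 15.9% of values were not whole, which blurs similar genes.

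Estimated counts were first rounded. In edgeR 4.0.16 (R 4.3.3), genes were filtered with filterByExpr (minimum count 10) and libraries scaled by TMM. A robust quasi-likelihood model with group and batch was fitted to all 69 libraries at once. Changes were called at a Benjamini-Hochberg adjusted p under 0.05 over all 16676 genes tested. Log2 CPM used a prior count of 2. Alternatives used DESeq2 1.42.0 and limma 3.58.1 (voom with sample quality weights), other scaling, filtering and rounding, single batches, a replicate block and omission of libraries. The method was also run on simulated counts with the same dispersion for every gene, no batch difference and no libraries standing apart. That run therefore does not cover these features of the data. Total counts of 9110860 to 27559144 set the precision. The study's methods count animals in the surgical and drug groups. Nothing says so for BWM and Lean, where p-values measure only the spread between these samples, which may be technical.

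The genes named are the 8 pumps, the 5 genes most like Abcb1b and, in each list, up to 3 called genes with the lowest p per comparison, or the lowest p in RYGB versus sham where none was called; 1 gene that this rule names is not reported here. Pumps and lists were chosen with earlier results of these data known. Promoter windows came from RefSeq (GRCr8), and gene positions from the count table (Rnor_6.0).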

Additional observations from a re-analysis of the deposited data

Results flagged for a closer look

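Within groups of 4 to 10 samples, a library was singled out where its gap to the nearest other exceeded the 95% limit of Dixon's test. In 35 groups of the pumps other than Abcb1b, 7 such values arose. The limit is set for about 1 in 20 with independent, normal values. The groups reuse the same libraries across pumps, CPM need not be normal, and saline spans both batches. The 7 can therefore not be compared with that rate. Abcb1b was not tested, since it was chosen for its values. PYY3-36 replicate 5 was far above its group for Abcb1a (36.2 CPM, next 14.8) and Abcc2 (312, next 151). Saline replicate 7 was high in its group for Abcc3 (4.74 CPM, next 3.52) and Abcg2 (8.16, next 5.04). Abcg2 was high in liraglutide replicate 4 (35.8 CPM, next 8.36) and Lean replicate 2 (10.7, next 4.96), and Abcc4 in liraglutide replicate 2 (9.55, next 6.6).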

How the results depend on the processing

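The number of tested pumps that passed in RYGB versus sham was 1 in every fit that left out 1 of the 26 libraries, and 0 to 5 elsewhere: 5 with limma-voom, 2 in batch A alone and with the replicate block, and 0 in batch B alone. In every other comparison it was 0 under all settings run. The genes of the 6 lists that passed in RYGB versus sham numbered 8, 6 to 10 when 1 library was left out, and 21 with limma-voom, 0 in batch B alone and 13 without the 6 libraries that stood apart. All genes that passed in RYGB versus sham numbered 520, and 24 (batch B alone) to 1585 (limma-voom).

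Among the 7 pumps, signs turned for values that had not passed. In batch B alone Abcb4 (-0.15) and Abcb11 (-0.58) turned in RYGB versus sham, as did Abcb11 (-0.83) in the difference of effects. In batch A alone Abcb4 (0.42), Abcc2 (-0.16) and Abcc3 (0.25) turned for liraglutide+PYY3-36. Abcc2 for that treatment was also 0 with limma-voom and -0.08 without the 6 libraries. Abcb11 for liraglutide was -0.02 with limma-voom and -0.07 without liraglutide replicate 4, the lowest of -0.07 to 0.43 when 1 library was left out. The cause was not tested.

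Replicate numbers of RYGB and sham did not pair the samples: over 12 pairs the correlation of deviations was -0.38 to 0.19, with 4 above 0.1 and 3 libraries closest to their own number. With the replicate block 368 genes and 2 pumps passed in RYGB versus sham, Abcc3 (0.93) and Abcb4 (0.81), and Abcb1a was -0.13. In that fit Abca8 (edgeR adjusted p = 0.276), Nr1i3 (0.0951), Ephx1 (0.277) and Vsig4 (0.129) did not pass. Of genes that had passed, Cyp2b1 (-0.16) and Cyp2b2 (-0.35) turned in batch B alone. Depth limits Abcc3 most, at 11 to 174 counts per library.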
